A study of Bos taurus with 14 samples.

Results

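The genes described here are *FYN*, a tyrosine kinase of the Src family, the 7 genes that encode the subunits of AMP-activated protein kinase (AMPK), and *STK11* and *CAMKK2*, which encode kinases that activate AMPK. They were picked by name, *FYN* for its difference between the groups on these same arrays and the others for their known link to AMPK. All were picked with earlier results of these data known. Of these 10 genes, 5 had a probe set under their symbol, among 9155 genes that the annotation named by 1 symbol in the whole series. The 14 samples were *longissimus dorsi* (LD) muscles of Charolais × Limousin crossbred heifers, 1 sample and 1 Affymetrix bovine array per animal. In the outdoor/pasture-fed group 7 heifers grazed grass and white clover, and in the indoor/concentrate-fed group 7 heifers were housed on concentrate with barley straw. Breed cross, sex and muscle were shared by both groups. Housing and diet changed together, so their contributions cannot be told apart. Within each system the heifers were kept in several management groups, which the labels do not give, and the tests below treat each animal as independent.

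AMPK is the energy sensor of the cell. Its α subunit carries the kinase, its β subunit holds the complex together and binds glycogen, and its γ subunit binds AMP, ADP and ATP. STK11, also called LKB1, and CAMKK2 phosphorylate the α subunit. Active AMPK phosphorylates acetyl-CoA carboxylase, which lowers malonyl-CoA, and as malonyl-CoA inhibits carnitine palmitoyltransferase 1, more fatty acid then enters mitochondria. In mouse muscle Fyn phosphorylates Stk11 and thereby restrains AMPK. All of these steps act on proteins, whereas the arrays measured transcripts only.

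The values are the deposited log2 expression values, so a difference of 1 is a doubling of signal. Their summary method, FARMS, gave near-identical values on all arrays for 14393 of the 24016 bovine probe sets (59.9%), and the remaining 9623, with an SD above 0.01 over the 14 arrays, are called varying. Probe sets differ in affinity, so levels were compared between animals and never between genes. In limma, 4 of all probe sets (0.0167%) passed a Benjamini-Hochberg adjusted p of 0.05 between the groups, and 2743 (11.4%) an unadjusted p of 0.05. Of the varying probe sets 47.5% had a difference above 0, that is, were higher at pasture. Within a group, each array's median correlation with the others over the varying probe sets was 0.964 to 0.985, and the lowest was that of indoor/concentrate-fed replicate 2. Skeletal muscle actin (*ACTA1*) and muscle creatine kinase (*CKM*) read 14.11 and 13.81 on every array. Both probe sets were among those that did not vary, so they cannot check the muscle label of a single array.

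*FYN* (gene identifier 527263 in the platform annotation) was measured by 1 probe set. Besides the arrays, the study designed a primer pair for this transcript, shown here because the forward primer lies on the part of the message that encodes the kinase core. Capitals mark the codons of the DFG motif, which opens the activation loop of protein kinases and was found by translating the primer in its 3 frames. Both are written 5′ to 3′, and no value from them was used.
FYN forward: cgccGACTTCGGAttgg
FYN reverse: gcgccttgtcttgctgtgt

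The *FYN* level (log2) of outdoor/pasture-fed replicates 1 to 7 was 8.99, 8.56, 8.97, 9.24, 9.18, 8.71 and 8.93. The *FYN* level of indoor/concentrate-fed replicates 1 to 7 was 8.48, 7.93, 8.07, 8.06, 8.26, 8.20 and 8.06. Every outdoor/pasture-fed animal lay above every indoor/concentrate-fed animal, and the nearest animals, replicate 2 at pasture and replicate 1 on concentrate, were 0.0756 apart. The mean was 8.94 ± 0.241 at pasture and 8.15 ± 0.181 on concentrate (SD, n = 7 each), a difference of 0.79 (SE 0.11) or 1.73-fold. The difference ranked 32 of the 9623 varying probe sets, counted from the highest, and 0.488% of those had no overlap with pasture higher. As *FYN* was chosen for this contrast, its difference is a description without a test, and that choice can make the difference too large. It spanned 0.74 to 0.85 when each array was left out in turn.

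**Figure D1:**
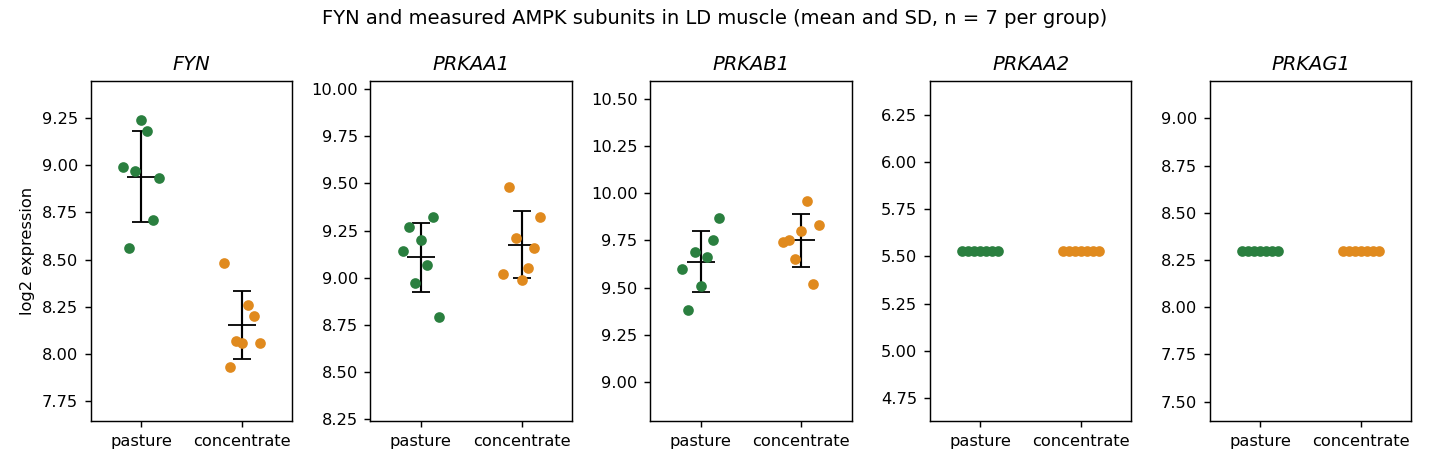
Deposited log2 expression of *FYN* and the 4 measured AMPK subunits, each point 1 animal, with mean and SD, outdoor/pasture-fed left and indoor/concentrate-fed right (n = 7 each); every panel spans the same number of log2 units. The groups are apart for *FYN*, overlap for *PRKAA1* and *PRKAB1*, and lie on 1 line for *PRKAA2* and *PRKAG1*, whose probe sets did not vary.

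*FYN* is expressed in muscle fibres and also in endothelium, T cells, nerve and fibroblasts, and a piece of muscle holds all of these. In such bulk samples fewer cells of a type and less RNA per cell cannot be told apart. All marker and pathway lists used here were assembled with results of these arrays known, so their direction is not independent evidence. Of 9 endothelial markers, all were measured and 8 varied, and 7 of these were higher at pasture at an unadjusted p of 0.05, against 9.21% of varying probe sets. None passed the threshold adjusted over all probe sets. *PECAM1*, the endothelial adhesion molecule CD31, differed by 0.54 (SE 0.11, limma adjusted p = 0.147) without overlap between the groups. Of varying probe sets 0.488% had no overlap with pasture higher. *CDH5*, VE-cadherin, differed by 0.59 (SE 0.15, adjusted p = 0.2). The angiopoietin receptor *TEK*, named after its values were seen, differed by 0.43 (SE 0.12, adjusted p = 0.234). The median difference of the 8 was 0.36, against -0.0077 over all varying probe sets. Their mean level was 8.72 to 9.14 in outdoor/pasture-fed animals and 8.25 to 8.76 in indoor/concentrate-fed animals. The part of endothelium in the *FYN* difference was not tested.

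Of 14 leukocyte markers 12 were measured and 7 varied, and none reached an unadjusted p of 0.05. Their mean level was 6.84 to 7.47 at pasture and 6.42 to 7.38 on concentrate, and the median difference was 0.13. The T cell genes *CD3D*, *CD2*, *CD4* and *LCK* did not vary over the arrays. *CD3E*, a chain of the T cell receptor complex, differed by 0.13 (adjusted p = 0.562), and *PTPRC*, the pan-leukocyte phosphatase CD45, by 0.31 (SE 0.24, adjusted p = 0.68). The lowest values of the table are near 5, so these values do not show whether a marker was absent.

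Of the other cell types, 7 of 7 fibroblast markers varied and none reached an unadjusted p of 0.05, with mean levels of 10.40 to 11.95 at pasture and 10.60 to 11.59 on concentrate. *DCN*, the matrix proteoglycan decorin, differed by 0.21 (SE 0.15, adjusted p = 0.646), and *FBLN1*, the matrix protein fibulin-1, by 0.30 (SE 0.23, adjusted p = 0.69). Of the 7 fibroblast differences 4 were above 0 and 3 below, with a median of 0.02. Of 6 smooth muscle and pericyte markers 5 varied and 1 was higher at an unadjusted p of 0.05, the pericyte gene *RGS5*, which differed by 0.70 (SE 0.17, adjusted p = 0.188), where 9.21% of varying probe sets were higher. *ACTA2*, smooth muscle actin, differed by 0.43 (SE 0.23, adjusted p = 0.524). Their mean level was 7.78 to 8.49 at pasture and 7.42 to 8.34 on concentrate. Of the 5 smooth muscle and pericyte differences 4 were above 0 and 1 below, with a median of 0.15. Of 7 nerve and Schwann cell markers 2 varied and 1 was higher at an unadjusted p of 0.05, against 9.21% of varying probe sets. *S100B*, a calcium-binding protein of glia, differed by 0.57 (SE 0.14, adjusted p = 0.2), myelin basic protein (*MBP*) by 0.22 (SE 0.14, adjusted p = 0.617), and the mean level of the pair was 8.62 to 9.10 at pasture and 8.16 to 8.80 on concentrate. Among 7 adipocyte markers 5 varied and among 6 red blood cell markers 2 varied, and none of these reached an unadjusted p of 0.05. The lipase *LIPE* differed by 0.47 (SE 0.26, adjusted p = 0.532) and leptin (*LEP*) by -0.22 (SE 0.16, adjusted p = 0.656). *LIPE* was the 1 adipocyte marker above 0, the other 4 were below, and the median difference was -0.22. The mean adipocyte level was 6.68 to 7.42 (median 6.98) at pasture and 6.46 to 8.26 (median 6.785) on concentrate, so these medians went the other way. *LEP*, near the lowest values of the table, had medians of 5.71 at pasture and 5.66 on concentrate. The haemoglobin chaperone *AHSP* differed by -0.12 (SE 0.06, adjusted p = 0.505) and β-globin (*HBB*) by -0.02 (SE 0.11, adjusted p = 0.964). Their part in the *FYN* difference was not tested.

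**Figure D2:**
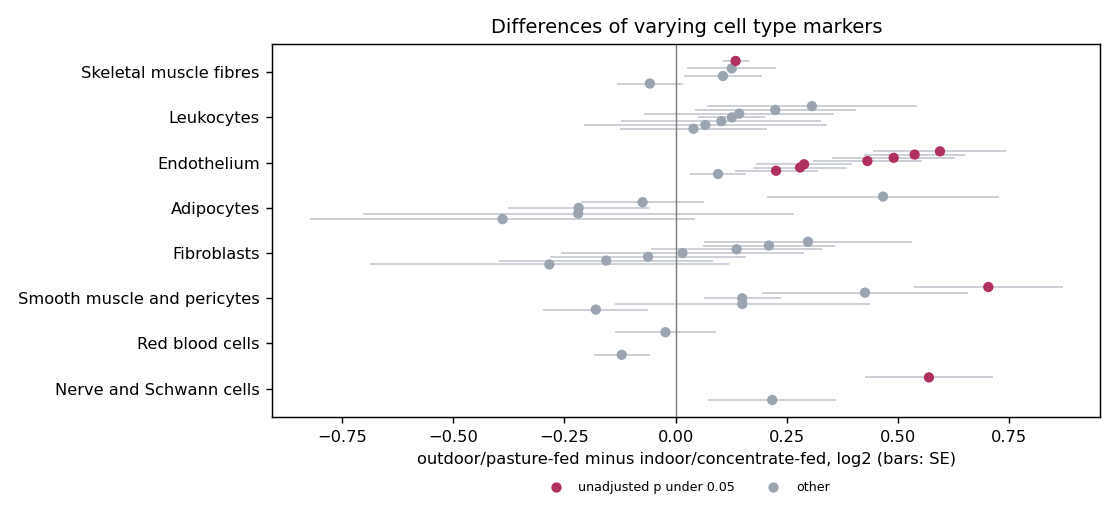
Difference in log2 expression, outdoor/pasture-fed minus indoor/concentrate-fed, of each varying marker gene by cell type, with bars for the SE (7 arrays per group). Of the 8 varying endothelial markers 7 are coloured as reaching an unadjusted p of 0.05, and of the 7 leukocyte and 7 fibroblast markers none is.

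*FYN* has 8 relatives in the Src family list used here, of which 5 were measured and 2 varied. *YES1*, a widely expressed relative, was 6.99 to 7.42 (median 7.21) at pasture and 6.79 to 7.12 (median 6.95) on concentrate. Its groups overlapped, and it differed by 0.23 (SE 0.07, adjusted p = 0.247). *LYN*, best known from B cells and myeloid cells, was 7.10 to 7.50 (median 7.38) at pasture and 6.81 to 7.48 (median 7.10) on concentrate. It also differed by 0.23 (SE 0.10, adjusted p = 0.418), and 2 further probe sets of *LYN* did not vary. *FGR*, *LCK* and *BLK*, kinases of blood cells, did not vary, so no difference could be read for them. Both varying relatives were thus higher at pasture at an unadjusted p of 0.05, against 9.21% of varying probe sets, and neither passed the adjusted threshold.

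Of 23 regulators and partners of FYN, 18 were measured and 9 varied, with differences above 0 for 5 and below 0 for 4, and a median of 0.02. At an unadjusted p of 0.05, 1 was higher and 3 were lower at pasture, against 19.6% of varying probe sets in either direction, and none passed the adjusted threshold. *CAV1*, caveolin-1, which binds acylated Src kinases and is abundant in endothelium, differed by 0.09 (SE 0.03, adjusted p = 0.25), and its second probe set by 0.36 (SE 0.15, adjusted p = 0.379). *MAPT*, the microtubule protein tau and a FYN substrate in neurons, differed by -0.41 (SE 0.13, adjusted p = 0.279), and its other varying probe sets by -0.49 (SE 0.11) and -0.29 (SE 0.11), with adjusted p-values of 0.179 and 0.354. The remaining pair is named after its values were seen. *SH2D1A*, the adaptor SAP that recruits FYN in lymphocytes, differed by -0.65 (SE 0.25, adjusted p = 0.341), and *PTPN1*, a tyrosine phosphatase, by -0.22 (SE 0.09, adjusted p = 0.371). *SH2D1A* read 5.39 to 6.25 at pasture, near the lowest values of the table, and 5.84 to 7.68 on concentrate. *CSK*, the kinase that phosphorylates the inhibitory tail of Src kinases, differed by 0.02 (SE 0.07, adjusted p = 0.948).

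Of the AMPK subunits 4 were measured, both α subunits, 1 β subunit and 1 γ subunit. *PRKAB2*, *PRKAG2* and *PRKAG3* were not analysed here, nor were the upstream kinases *STK11* and *CAMKK2*. None of the measured subunits passed the threshold, adjusted over all probe sets, against 0.0167% of all probe sets, and none had an unadjusted p under 0.05, against 11.4%. Only 2 of them varied, where 19.6% of varying probe sets had an unadjusted p under 0.05. With so few genes these counts cannot be told from the shares.

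*PRKAA1* encodes the α1 catalytic subunit, which is found in most tissues. The *PRKAA1* level (log2) of outdoor/pasture-fed replicates 1 to 7 was 9.14, 9.27, 8.97, 9.20, 9.07, 9.32 and 8.79. The *PRKAA1* level of indoor/concentrate-fed replicates 1 to 7 was 9.02, 9.48, 9.21, 8.99, 9.05, 9.16 and 9.32. The groups overlapped over most of their range, and the lowest animal was at pasture and the highest on concentrate. The mean was 9.11 ± 0.184 at pasture and 9.18 ± 0.178 on concentrate (SD, n = 7 each). The difference of -0.07 (SE 0.10, 95% interval -0.28 to 0.14) was smaller than the spread within either group (limma adjusted p = 0.85, two-sided exact permutation p = 0.495). On the fold scale the interval spanned 0.825 to 1.10, so a change of the size seen in *FYN* lies outside it, in either direction.

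*PRKAA2* encodes the α2 catalytic subunit, the main form in skeletal muscle. Its probe set read 5.53 on every array, with an SD of 1.04e-05 over the 14 arrays, near the lowest values of the table. A value that FARMS fixes across arrays carries no information on a difference, so α2 could not be compared.

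*PRKAB1* encodes the β1 scaffold subunit. The *PRKAB1* level (log2) of outdoor/pasture-fed replicates 1 to 7 was 9.60, 9.38, 9.69, 9.51, 9.66, 9.75 and 9.87. The *PRKAB1* level of indoor/concentrate-fed replicates 1 to 7 was 9.74, 9.75, 9.65, 9.80, 9.96, 9.52 and 9.83. The groups overlapped, with 2 of 7 outdoor/pasture-fed animals above the indoor/concentrate-fed mean. The mean was 9.64 ± 0.16 at pasture and 9.75 ± 0.139 on concentrate (SD, n = 7 each). The difference of -0.11 (SE 0.08, 95% interval -0.29 to 0.06) did not pass either test (limma adjusted p = 0.636, two-sided exact permutation p = 0.176). On the fold scale the interval spanned 0.820 to 1.04.

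*PRKAG1* encodes γ1, the nucleotide-binding subunit found in most tissues. Its probe set read 8.30 on every array (SD 0.000184), and no difference could be read. The subunit comparison therefore rests on 1 α and 1 β gene.

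Whether animals with more *FYN* had more or less of these subunits was examined within each group, because a pooled correlation would restate the group difference. This gave 4 relations of 7 animals each, and none passed the threshold. With *PRKAA1*, the α1 subunit, *FYN* had a Pearson r of -0.34 at pasture (exact permutation p = 0.458, adjusted 0.915) and a Spearman rho of -0.29 (exact p = 0.556, adjusted 0.783). On concentrate r was -0.69 (exact permutation p = 0.0794, adjusted 0.318) and rho -0.46 (exact p = 0.302, adjusted 0.783). Without the 2 animals farthest from the median of *FYN*, r was -0.39 at pasture and -0.62 on concentrate. Leaving out each animal in turn, r stayed below 0 in both groups, at -0.56 to -0.11 at pasture and -0.91 to -0.50 on concentrate. The strongest value came without indoor/concentrate-fed replicate 4, the lowest of its group in *PRKAA1* and near the group median in *FYN*, and stood at the threshold itself (exact permutation p = 0.0125, adjusted 0.05).

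With *PRKAB1*, the β1 subunit, r was 0.17 at pasture (exact permutation p = 0.715, adjusted 0.953) and rho was -0.18 (exact p = 0.713, adjusted 0.783). On concentrate r was 0.03 (exact permutation p = 0.953, adjusted 0.953) and rho -0.14 (exact p = 0.783, adjusted 0.783). Single animals set the sign of these values. Without the 2 animals farthest from the median of *FYN*, r was -0.42 at pasture and -0.66 on concentrate, and leaving out outdoor/pasture-fed replicate 2 alone gave -0.65. The subunits themselves were compared after the values were seen, with an r of *PRKAA1* and *PRKAB1* of -0.64 at pasture (exact permutation p = 0.12, adjusted 0.239 over 2 relations; rho -0.46, exact p = 0.302) and -0.14 on concentrate (exact permutation p = 0.774, adjusted 0.774; rho -0.07, exact p = 0.906). Without the 2 animals farthest from the median of *PRKAA1* these were -0.10 and -0.64, so neither value was stable.

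**Figure D3:**
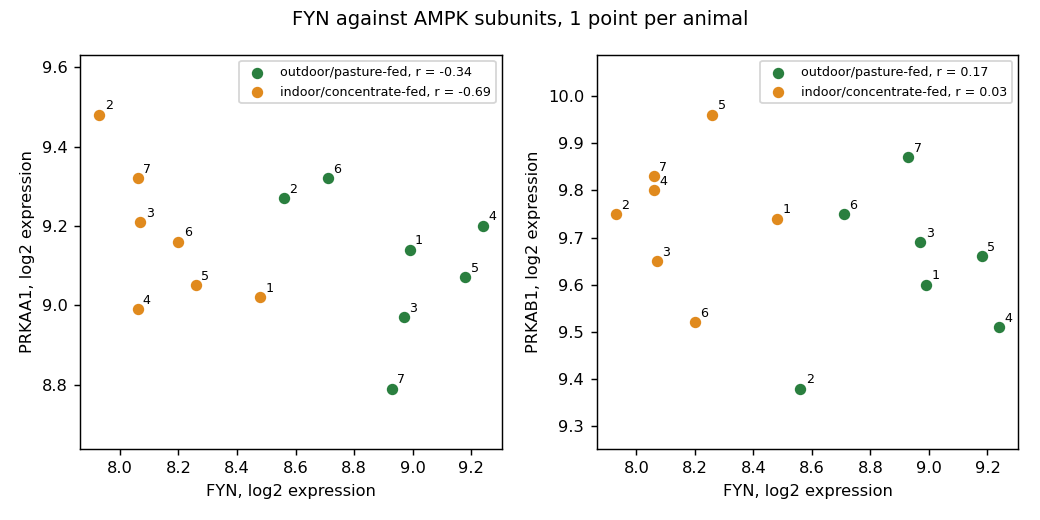
*FYN* (horizontal, log2 expression) against *PRKAA1* (left) and *PRKAB1* (right), each point 1 animal labelled with its replicate number, and r given within each group (n = 7 each). The groups separate along *FYN* and overlap along both subunits, with r between -0.69 and 0.17.

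The genes whose pattern was most like that of *FYN* were sought among 5936 varying probe sets with 1 gene symbol, by Pearson r over the 14 arrays after the group means had been removed. The 5 highest were *VNN2*, a pantetheinase, at 0.85, *COL15A1*, a basement membrane collagen, at 0.83, *MYOC*, the secreted protein myocilin, at 0.80, *COLEC12*, an endothelial scavenger receptor, at 0.80, and *SLC44A2*, a choline transporter, at 0.80. Most opposite were both probe sets of *HSPB1*, the small heat shock protein of muscle, at -0.86 and -0.81, *SMN2*, named for the spliceosome assembly factor SMN, at -0.84, *RPS19BP1*, a ribosomal protein binding factor, at -0.82, and *PTPN3*, a tyrosine phosphatase, at -0.81. These values are the extremes of many correlations over few animals, and are given as a description. None of these 10 probe sets passed the adjusted threshold between the groups. *VNN2* differed most, by 0.69 (SE 0.24, adjusted p = 0.304), and *COL15A1* by 0.01 (SE 0.13, adjusted p = 0.985), although both tracked *FYN* within groups. By the same measure *PRKAB1* had an r of 0.11 with *FYN*, at percentile 60.8 of all varying probe sets, and *PRKAA1* one of -0.48, at percentile 8.45.

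Around AMPK, 9 upstream kinases and their partners were listed, of which 4 were measured and 2 varied. *STRADB*, a pseudokinase that holds STK11 in its active form, was 9.99 to 10.15 at pasture and 10.05 to 10.50 on concentrate. The groups overlapped, and *STRADB* differed by -0.16 (SE 0.08, limma adjusted p = 0.453, exact permutation p = 0.0728), with a second probe set at -0.42 (SE 0.21, adjusted p = 0.481). *TAB1*, an adaptor of the kinase TAK1, differed by -0.01 (SE 0.07, adjusted p = 0.987). *STRADA* and *CAMKK1* did not vary. Of 13 AMPK-related kinases, most of which STK11 also activates, 7 were measured and only *NUAK1* varied, with a difference of -0.02 (SE 0.12, adjusted p = 0.962).

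Of 16 negative regulators of AMPK, mostly phosphatase subunits, 11 were measured and 9 varied. All 9 differences were below 0, from -0.0001 for the phosphatase *PPM1B* to -0.40, with a median of -0.13 against -0.0077 over all varying probe sets. Of all varying probe sets 47.5% had a difference above 0. At an unadjusted p of 0.05, 2 were lower and none higher at pasture, against 10.4% of varying probe sets lower, and none passed the adjusted threshold. *PPP1R3C*, which targets protein phosphatase 1 to glycogen, was 11.71 to 12.49 (median 12.24) at pasture and 12.34 to 12.91 (median 12.54) on concentrate. It differed by -0.40 (SE 0.12, adjusted p = 0.247), and its further probe sets by -0.67 (SE 0.16) and -0.82 (SE 0.20), with adjusted p-values of 0.196 and 0.197. *PPP2R1A*, the scaffold of protein phosphatase 2A, differed by -0.23 (SE 0.08, adjusted p = 0.298).

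Of 29 AMPK substrates 23 were measured and 13 varied, with differences above 0 for 8 and below 0 for 5 and a median of 0.09. *ACACB* encodes the acetyl-CoA carboxylase whose malonyl-CoA restrains fatty acid entry into muscle mitochondria. It was 12.65 to 13.09 (median 12.84) at pasture and 12.10 to 12.69 (median 12.48) on concentrate, and differed by 0.37 (SE 0.09, limma adjusted p = 0.182). Only the ends of its groups overlapped. *SREBF2*, the transcription factor of cholesterol synthesis, differed by -0.15 (SE 0.04, adjusted p = 0.241). These were the varying substrates with an unadjusted p under 0.05, 1 in each direction, against 19.6% of all varying probe sets in either direction, and none passed the adjusted threshold.

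Further lists held genes that AMPK activity is known to raise in muscle and the genes of malonyl-CoA and fatty acid entry. Like the other lists, both were assembled with results of these arrays known, so their direction is not independent evidence. Of 14 AMPK-responsive genes 11 were measured and all 11 varied. Their differences were above 0 for 9 and below 0 for 2, with a median of 0.06, where 47.5% of varying probe sets were above 0. At an unadjusted p of 0.05, 3 were higher and none lower, against 9.21% of varying probe sets higher and 10.4% lower. *CPT1B*, the muscle carnitine palmitoyltransferase, was 9.79 to 10.19 (median 9.86) at pasture and 8.98 to 9.73 (median 9.27) on concentrate. Its groups did not overlap, where 0.488% of varying probe sets had no overlap with pasture higher. It differed by 0.65 (SE 0.11), which missed the threshold over all probe sets (limma adjusted p = 0.105) and passed among varying ones (adjusted p = 0.0249), of which 0.343% did. It no longer passed there without replicate 4 at pasture (adjusted p = 0.0587) or replicate 3 on concentrate (adjusted p = 0.061). *CD36*, the fatty acid translocase, was 12.18 to 12.62 at pasture and 11.80 to 12.23 on concentrate, and differed by 0.33 (SE 0.09, adjusted p = 0.219).

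All 6 genes of malonyl-CoA and fatty acid entry were measured and varied, and all 6 were higher at pasture at an unadjusted p of 0.05, against 9.21% of varying probe sets, with a median difference of 0.38. The list shares *ACACB*, *CPT1B* and *CD36* with those above. *MLYCD*, malonyl-CoA decarboxylase, which degrades the product of *ACACB*, was named after its values were seen. It was 9.01 to 9.43 at pasture and 8.10 to 9.22 on concentrate, and differed by 0.59 (SE 0.15, adjusted p = 0.206). Enzymes that make and that degrade malonyl-CoA were thus both higher at an unadjusted p of 0.05. None of the 151 measured genes of the pathway and marker lists other than *FYN* passed the threshold adjusted over all probe sets.

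**Figure D4:**
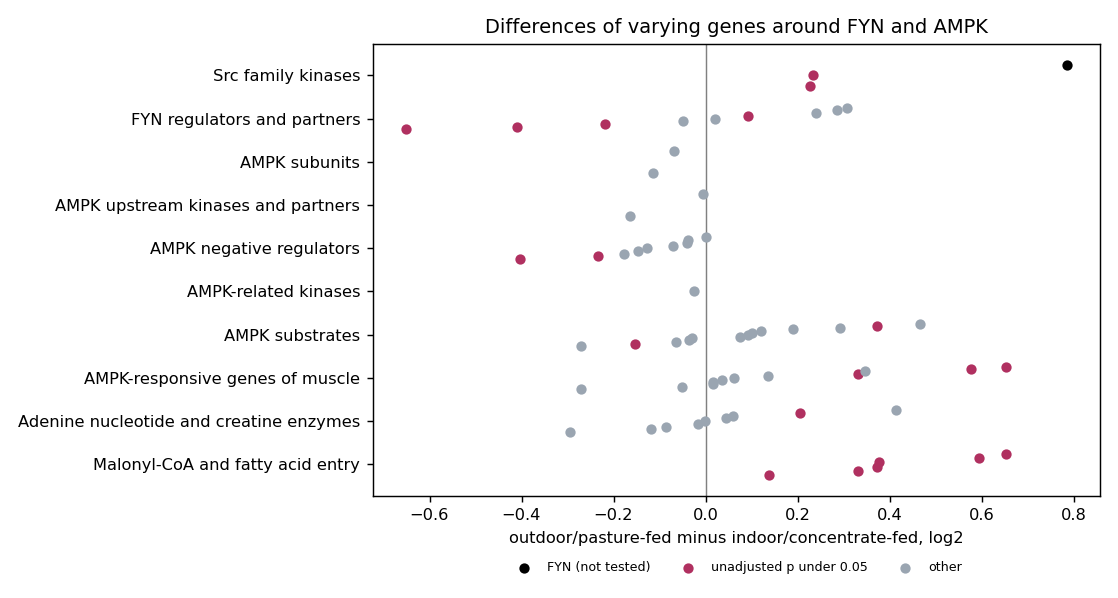
Difference in log2 expression, outdoor/pasture-fed minus indoor/concentrate-fed, of each varying gene in 10 lists around FYN and AMPK, 1 point per gene (7 arrays per group); *FYN* is black and untested. All 6 genes of fatty acid entry lie right of 0 with an unadjusted p under 0.05, both varying AMPK subunits lie left of 0 without one.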

How the data were processed

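LD muscle RNA of 14 heifers was amplified and hybridised to Affymetrix Bovine Genome Arrays, 1 per animal. The authors applied quantile normalisation and the FARMS summary of each probe set (qFarms), and deposited log2 expression values. Software versions are not given in the sources used here, no genome coordinates were used, and the authors' filter for informative probe sets was not repeated, as it needs probe-level data. Array data hold no counts, so the number of arrays limits the precision.

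The 112 control probe sets were removed from 24128. Groups come from the sample labels. Outdoor/pasture-fed minus indoor/concentrate-fed was fitted over all 24016 bovine probe sets with limma 3.58.1 (lmFit, eBayes; R 4.3.3), with Benjamini-Hochberg adjustment at 0.05, and the fit was tested on simulated data. Probe sets with an SD above 0.01 over the 14 arrays were called varying. Exact permutation tests were two-sided over 3432 assignments of arrays (smallest p 0.000583) or 5040 pairings of 7 animals (smallest p 0.000198). Correlations were taken within groups.

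Platform annotation gave 1 gene symbol for 13292 probe sets, several for 86 and none for 10638. A gene identifier present in the RefSeq gene table was held by 13263 probe sets. A gene in a list was represented by its probe set with the highest mean. The members and the 18 lists were chosen with earlier results of these data known. Named are all members, in each list the genes past the adjusted threshold or otherwise the 2 with the smallest p, any varying Src family or AMPK-related kinase or upstream partner, and the 5 probe sets most like and most opposite to *FYN*. *ACTA1*, *CKM* and non-varying genes are named as such, and *CSK*, *PPM1B*, *SH2D1A*, *PTPN1*, *MLYCD* and *TEK* were named after their values were seen. Alternatives were a replicate block, filters by SD and mean, a trended and robust prior, array weights, centring on array medians, renewed quantile normalisation, leaving out each array, Spearman's rho, and the probe set with the highest SD.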

Additional observations from a re-analysis of the deposited data

Results flagged for a closer look

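In 4 of 96 groups of 7 animals checked over the named probe sets (4.17%), 1 animal stood apart from the other 6, with a gap past Dixon's critical value, and chance alone gives about 1 in 20 such groups. Indoor/concentrate-fed replicate 2 was high in *NT5C2*, a cytosolic nucleotidase that acts on purine monophosphates, at 10.91, against a group median of 10.04. Indoor/concentrate-fed replicate 3 was low in *TNNT1*, the slow fibre troponin T, at 12.96, against a group median of 13.57. Indoor/concentrate-fed replicate 1 was high in *LEP*, the adipocyte hormone leptin, at 6.72, against a group median of 5.66. Outdoor/pasture-fed replicate 2 was high in *HBB*, the β-globin of red blood cells, at 6.08, against a group median of 5.39. Both of these medians are near the lowest values of the table, and the other probe sets of *LEP* and *HBB* did not vary. No group of *FYN*, *PRKAA1* or *PRKAB1* held such an animal.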

How the results depend on the processing

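The count of probe sets that passed over the whole table was 4, and it moved to 2 with the replicate block, 33 among probe sets with an SD above 0.01, 37 with an SD above 0.1, 17 with a mean above the median, 26 after centring on array medians and 17 with array weights, and it spanned 1 to 8 when each array was left out in turn. It was 4 with a trended and robust prior and 6 after renewed quantile normalisation. No AMPK subunit passed in any of these 22 settings, the replicate block included. The replicate numbers of the labels do not pair the animals. Deviations of the 7 same-numbered pairs correlated at -0.184 to 0.235, 2 of them above 0.1, and 2 pairs held the best match of their animal. The *FYN* difference was 0.79 with the replicate block and after either rescaling. The *PRKAA1* difference spanned -0.10 to -0.01 and the *PRKAB1* difference -0.15 to -0.07 on leaving out arrays. No relation of *FYN* with a subunit passed in any of 17 settings. Without indoor/concentrate-fed replicate 4, *FYN* and *PRKAA1* on concentrate stood at the threshold itself (exact permutation p = 0.0125, adjusted 0.05). Of the genes in the pathway and marker lists 0 passed over all probe sets. *CPT1B* was the 1 gene that passed among probe sets with an SD above 0.01, with a mean above the median, after centring on array medians and with array weights, and *CPT1B* and *PECAM1* were the 2 that passed with an SD above 0.1. On leaving out each array the count spanned 0 to 1, with *CPT1B* passing without indoor/concentrate-fed replicate 2. The study had already reported *CPT1B* on these same arrays, so these passes are not independent support. The count was 0 with the replicate block, the highest-SD probe set, the trended and robust prior and renewed quantile normalisation. For the lists, all but the SD above 0.01 and the highest-SD probe set were chosen after seeing the data. The cause of these shifts was not tested. With 7 animals per group, and *PRKAA2* and *PRKAG1* fixed by the summary method, small differences in AMPK subunits were not detectable.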

Other observations

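The enzymes that set the adenine nucleotide and creatine pools, whose products AMPK senses, showed no common direction. Of 16 listed, 12 were measured and 9 varied, with differences above 0 for 4 and below 0 for 5 and a median of -0.0011. *CKMT2*, the mitochondrial creatine kinase of muscle, was 13.13 to 13.40 at pasture and 12.84 to 13.26 on concentrate. It differed by 0.21 (SE 0.07, limma adjusted p = 0.293), with a second probe set at 0.19 (SE 0.07, adjusted p = 0.327). *CKMT2* was the varying gene of the list with an unadjusted p under 0.05, against 19.6% of varying probe sets in either direction. *NT5C2* differed by -0.30 (SE 0.17, adjusted p = 0.55).

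Fibre markers were compared as well. Of 12 listed, 8 were measured and 4 varied. *MYH1*, a fast myosin heavy chain, differed by 0.14 (SE 0.03, adjusted p = 0.148) at its brightest probe set, and its further probe sets differed in sign, from -0.90 (SE 0.31, adjusted p = 0.288) to 0.20 (SE 0.19, adjusted p = 0.761). *TNNT1* differed by 0.13 (SE 0.10, adjusted p = 0.689).

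Within groups, *FYN* was set against the mean level of each of the 8 marker lists, which gave 16 relations of 7 animals. None passed the adjusted threshold. The highest was with fibroblast markers at pasture (r 0.87, exact permutation p = 0.00913, adjusted 0.146; rho 0.93, exact p = 0.00675, adjusted 0.108), and r was 0.94 without the 2 animals farthest from the median of *FYN*. On concentrate the same relation had an r of 0.25 (exact permutation p = 0.587, adjusted 0.859; rho 0.29, exact p = 0.556, adjusted 0.988). With nerve and Schwann cell markers r was -0.11 at pasture (exact permutation p = 0.795, adjusted 0.859; rho -0.04, exact p = 0.963, adjusted 1) and 0.82 on concentrate (exact permutation p = 0.0208, adjusted 0.167; rho 0.79, exact p = 0.048, adjusted 0.384), and r on concentrate was 0.93 without the 2 animals farthest from the median of *FYN*. With endothelial markers r was 0.31 at pasture (exact permutation p = 0.483, adjusted 0.859; rho 0.29, exact p = 0.556, adjusted 0.988) and 0.24 on concentrate (exact permutation p = 0.62, adjusted 0.859; rho 0.36, exact p = 0.444, adjusted 0.988). Whether the relations differ between the groups was not tested.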
